A study of Mus musculus with 3 samples.

Results

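Messenger RNA of 8 genes of the red cell lineage was examined in RNAseq libraries of sorted immune cells from mice bearing kidney tumors. The genes were Hbb-b1, Hbb-b2, Hba-a1 and Hba-a2, which encode the adult beta and alpha chains of hemoglobin, and Alas2, Slc4a1, Epor and Klf1. They were chosen by symbol, by a rule that reads no level but with earlier results of these data known, and all 8 were found among 33506 genes with a level. The series held 1 library for each of 3 cell subsets. CD4 T cells were sorted from spleens, and type-1 (M1) and type-2 (M2) macrophages from tumors grown in the kidney from Renca cells, a renal carcinoma line of BALB/c mice. The labels name the line Renca, and the study's text names it Renca Ch+ L+, a derivative that carries Cherry and luciferase. All mice were of the BALB/C strain and all bore Renca tumors, so that no library came from a tumor-free animal. M1 were gated as cells with intermediate F4/80 and high CD11b, and M2 as cells with high F4/80 and intermediate CD11b, both surface proteins of myeloid cells. Cells of 30 tumors and 4 spleens were pooled, and the labels give the harvest both as day 14 and as day 16 after injection. The labels also name the tumor as the origin of the CD4 T cells in one field and the spleen in another. With 1 library per subset no test between subsets was possible, and every difference given here is a difference between 2 libraries without a replicate check.

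Red cells form from nucleated erythroblasts, which in mice are found in the bone marrow and also in the spleen. Erythropoietin binds its receptor, Epor, on erythroid progenitors, and the transcription factor Klf1, which binds CACCC elements, acts with Gata1 to switch on globin genes, heme synthesis and membrane proteins. Mouse reticulocytes and red cells have lost the nucleus, while reticulocytes still carry globin messenger RNA in large amounts. Neither T cells nor macrophages are known as makers of hemoglobin in quantity, and macrophages of spleen and liver take up aged red cells.

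The names of the libraries were set against cell subset genes, because each direction below rests on them. Levels are in FPKM, the number of fragments for each kilobase of a transcript and each 1000000 fragments mapped. Lck, a kinase of T cell receptor signalling, was at 209 FPKM under the label M2, 0.408 under M1 and 0.214 under CD4. All 11 T-cell genes with a level were highest under M2, and all 12 macrophage genes were lowest there. Among these, the lysozyme gene Lyz2 was at 5975 FPKM under M1, 330.2 under M2 and 6687 under CD4. These levels go against the labels M2 and CD4. M1, M2 and CD4 in what follows mean the libraries with those labels, not a cell type that was checked. Depth was estimated as 61200000 fragments for M1, 60300000 for M2 and 73000000 for CD4. A value of 0 can be a failed estimate. Of 4355 genes at 10 FPKM or more in both other libraries, 28 were listed at 0 in M1, or 0.643%. For M2 these were 72 of 4894, or 1.47%, and for CD4 34 of 4387, or 0.775%. A gene absent from the sorted cells would also be listed at 0, and these counts do not tell the cases apart.

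The 4 adult globin genes are copies of one another in pairs, and their sequences set how far each copy can be told apart. In build NCBIM37 (MM9), the genome the reads were aligned to, Hba-a1 lies on the forward strand of chromosome 11 from 32183511 to 32184465 and Hba-a2 from 32196489 to 32197301. Hbb-b1 lies on the reverse strand of chromosome 7 from 110975048 to 110976610 and Hbb-b2 from 110961038 to 110962510. The coding sequences of the alpha pair have 429 bases and differ by 1 base, C381T, and those of the beta pair have 444 bases and differ by 1 base, C417T. The base of Hba-a1 or Hbb-b1 is given first, and positions count from 1 at the A of the start codon. The stretches within reach of a read of 51 bases around that base run from coding base 331 to 429 for the alpha pair and from 367 to 444 for the beta pair. They show how little separates the copies, and the base in capitals is the one that differs.
Hba-a1: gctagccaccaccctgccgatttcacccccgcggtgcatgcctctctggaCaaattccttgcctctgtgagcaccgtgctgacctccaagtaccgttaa
Hba-a2: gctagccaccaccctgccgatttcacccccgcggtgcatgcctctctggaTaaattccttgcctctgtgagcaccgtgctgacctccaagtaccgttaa
Hbb-b1: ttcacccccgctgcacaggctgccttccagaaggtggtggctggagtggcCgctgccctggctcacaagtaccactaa
Hbb-b2: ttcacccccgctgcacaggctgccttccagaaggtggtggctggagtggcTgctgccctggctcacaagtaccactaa

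Of the 51-base windows of the Hba-a2 transcript, 86.7% were also found in the Hba-a1 transcript, and of those of Hba-a1, 67.3% were found in Hba-a2. The shares were 52.2% for Hbb-b1 and 58.2% for Hbb-b2. Reads from such windows match both copies, and how they were divided between them was not given in the sources used here. The study sequenced fragments from both ends, and these shares are of single reads. The share of whole fragments that match both copies was not computed. Levels of single copies are therefore uncertain, and the sum over the 4 genes is given beside them. The reference genome is of strain C57BL/6, whose beta globin haplotype is known to differ from that of BALB/c mice, and its part in the levels of Hbb-b1 and Hbb-b2 was not tested.

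Windows of 250 bases before the RefSeq start site (build GRCm38.p6, credited to RefSeq) were available for 5 of the 8 genes, namely Hba-a1, Hba-a2, Alas2, Epor and Klf1. They are shown because Klf1 is both a member and a factor known to bind CACCC elements in erythroid promoters. The windows lie at chr11:32283422-32283671 on the forward strand for Hba-a1, chrX:150547167-150547416 on the forward strand for Alas2, chr9:21963577-21963826 on the reverse strand for Epor and chr8:84901732-84901981 on the forward strand for Klf1. They read 5′ to 3′ in the direction of the gene. Capitals mark matches on either strand to the CACCC element, to the GATA motif in the form TGATAA or in the form AGATAA, to the CCAAT box and to the TATA box in the form TATAAA. No match overlapped another.
Hba-a1: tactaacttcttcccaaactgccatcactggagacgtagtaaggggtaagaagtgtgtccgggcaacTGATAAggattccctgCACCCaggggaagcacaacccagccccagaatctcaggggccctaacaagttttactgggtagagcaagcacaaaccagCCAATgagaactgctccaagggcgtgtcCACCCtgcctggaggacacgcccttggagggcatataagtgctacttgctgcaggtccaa
Alas2: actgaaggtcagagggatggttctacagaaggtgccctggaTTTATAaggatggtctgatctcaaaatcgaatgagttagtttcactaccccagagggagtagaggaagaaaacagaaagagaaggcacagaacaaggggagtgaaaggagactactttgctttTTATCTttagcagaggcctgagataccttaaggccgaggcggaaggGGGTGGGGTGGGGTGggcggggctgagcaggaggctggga
Epor: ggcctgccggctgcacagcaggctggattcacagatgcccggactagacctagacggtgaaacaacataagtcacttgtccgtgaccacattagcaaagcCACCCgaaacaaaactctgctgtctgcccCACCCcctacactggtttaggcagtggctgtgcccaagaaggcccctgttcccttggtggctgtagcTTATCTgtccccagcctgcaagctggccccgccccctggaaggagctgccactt
Klf1: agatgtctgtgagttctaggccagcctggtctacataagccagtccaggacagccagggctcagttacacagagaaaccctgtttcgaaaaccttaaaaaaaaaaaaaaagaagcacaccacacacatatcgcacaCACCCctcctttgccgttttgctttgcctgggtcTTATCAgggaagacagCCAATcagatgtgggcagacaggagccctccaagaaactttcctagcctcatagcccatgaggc

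CACCC was present in all 5 windows, including that of Hba-a2, and in 52.0% of all 32851 windows of the same length. TGATAA or AGATAA was also present in all 5, and in 16.6% of all windows. CCAAT was present in 3 of the 5 and in 33.8% of all windows, and TATAAA in 1, that of Alas2, and in 12.4%. The match in Alas2 was on the other strand and 209 bases before the start site. Other forms of the TATA box were not sought in any window. In Hba-a1 the CACCC matches began 167 and 60 bases before the start site and the GATA match 183 bases before it. In Alas2 there were 3 CACCC matches next to each other on the other strand, beginning 40, 35 and 30 bases before the start. The window of Hba-a2 was identical to that of Hba-a1 over the 247 bases they share, shifted by 3 bases. A match describes these letters only.

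The globin genes were the highest of the 8 genes in every library. Hba-a2 was at 55.0 FPKM in the library labelled M1, 295 in M2 and 49.8 in CD4, and Hba-a1 at 7.40, 43.7 and 6.07 FPKM. Hbb-b1 stood at 36.4 FPKM in M1, 249 in M2 and 42.1 in CD4, and Hbb-b2 at 5.64, 31.4 and 5.34. Each of the 4 was thus highest in M2, while M1 and CD4 lay close to each other. In M2, Hba-a2 stood above 99.5% of the genes with a level above 0 and Hbb-b1 above 99.3%. In M1 they stood above 94.2% and 90.6%, and in CD4 above 93.6% and 92.3%.

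**Figure D1:**
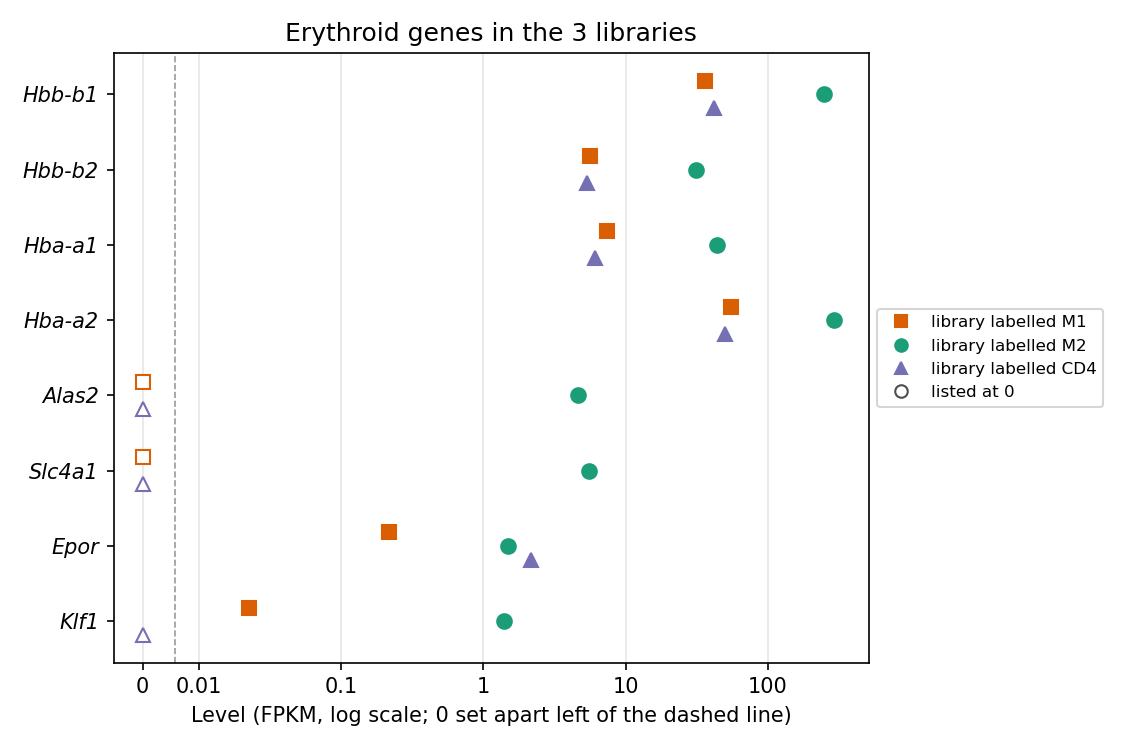
Levels of the 8 erythroid genes in the 3 libraries, 1 point per library, in FPKM on a log axis, with open symbols left of the dashed line for genes listed at 0. The library labelled M2 (circles) lies to the right of the others for 7 genes, and Epor is the exception, at 2.15 FPKM in CD4 against 1.48 in M2.

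Summed over the 4 genes, globin was at 105 FPKM in M1, 619 in M2 and 103 in CD4. The sum in M2 was 5.93 times that in M1, while M1 and CD4 differed by 1.01 times. On the log2(FPKM + 1) scale, which understates differences of low genes, the ratio was 2.56 for M2 against M1, 2.57 for M2 against CD4 and 0.02 for M1 against CD4. The counting interval of the ratio of M1 to CD4 was -0.07 to 0.10, and the ratio went to -0.01 when libraries were scaled by median ratios, so that no direction is given for it. The whole transcriptome was less shifted, with a median log2 ratio of 0.10 for M2 against CD4 and 0.09 for M2 against M1 over 12675 genes with at least 1 FPKM in a library. Globin made up 0.214% of the summed gene levels in M2, 0.0318% in M1 and 0.0317% in CD4. In libraries of sorted cell pools, fewer erythroid cells and less globin messenger RNA per cell cannot be told apart.

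The proportions of the 4 copies were similar in the 3 libraries, but not equal within counting error. M2 exceeded CD4 by 5.92 times for Hba-a2, 7.20 for Hba-a1, 5.92 for Hbb-b1 and 5.88 for Hbb-b2. Their 95% counting intervals were 5.65 to 6.22, 6.33 to 8.22, 5.67 to 6.19 and 5.16 to 6.72. These intervals come from fragment numbers computed from the estimated depth, and cover counting error only. M2 exceeded M1 by 5.36, 5.91, 6.84 and 5.57 times in the same order, with intervals of 5.10 to 5.63, 5.19 to 6.76, 6.50 to 7.20 and 4.86 to 6.41. The intervals of Hba-a1 and Hba-a2 against CD4 did not overlap, nor did those of Hba-a2 and Hbb-b1 against M1. The second of these depends on which rows are read, since a further row of Hbb-b1 held a value in M1 alone. With that row added, M2 exceeded M1 by 5.17 times for Hbb-b1, inside the interval of Hba-a2. Hba-a1 was 11.8% of alpha globin in M1, 12.9% in M2 and 10.9% in CD4, and Hbb-b2 was 13.4%, 11.2% and 11.3% of beta globin. With the further row of Hbb-b1 added, the share of Hbb-b2 in M1 was 10.5%, the lowest of the 3 libraries. The ratio of alpha to beta globin was 1.21 in M2 and 1.18 in CD4, and 1.48 in M1. The higher ratio in M1 also depends on which rows are read, and was 1.16 when the further row of Hbb-b1 was added.

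Part of the Hba-a1 level belonged to a transcript annotated with a kept intron. It was at 3.81 FPKM in M1, 18.3 in M2 and 2.66 in CD4, beside 3.59, 25.5 and 3.41 FPKM for the spliced coding transcript. The kept-intron transcript was thus 51.5% of the gene's level in M1, 41.7% in M2 and 43.8% in CD4. The corresponding transcript of Hba-a2 was listed at 0 in all 3 libraries. With 86.7% of the windows of Hba-a2 shared with Hba-a1, a difference in splicing between the copies cannot be read from this. Hbb-y, Hbb-bh1, Hbb-bh2 and Hba-x, the embryonic globins of the list, were listed at 0 in every library, and of the theta globins Hbq1a was at 0.0185 FPKM in M1, 0.0186 in M2 and 0 in CD4 and Hbq1b at 0.00425, 0.235 and 0.

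Alas2, the erythroid enzyme of the first step of heme synthesis, spans bases 146981918 to 147005181 of chromosome X, forward strand. It was at 4.66 FPKM in M2, about 555 fragments, and listed at 0 in M1 and in CD4. A level of 3 fragments on its longest transcript would be 0.0241 FPKM in M1 and 0.0202 in CD4, which is the limit of a 0 where that 0 is not a failed estimate. Slc4a1, the band 3 anion exchanger of the red cell membrane, lies on the reverse strand of chromosome 11 from 102210138 to 102227517. It was at 5.52 FPKM in M2, about 1515 fragments, and listed at 0 in M1 and CD4 in the row that has values for all 3. A second row of the same transcript held 0.636 FPKM in M1 and 0.534 in CD4 with a dash in M2. With both rows added, M2 was 8.69 times M1 and 10.3 times CD4. For Slc4a1 the listed 0 was therefore a matter of which row was read, while for Alas2 every row was at 0 in M1 and CD4.

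Klf1, the erythroid transcription factor, lies on the forward strand of chromosome 8 from 87425827 to 87429194. It was at 1.39 FPKM in M2, about 129 fragments, at 0.0223 in M1, about 2 fragments, and listed at 0 in CD4. M2 was 62.3 times M1, with a counting interval of 16.9 to 520.3 that is wide because of the few fragments in M1. A further row held 0.0759 FPKM for Klf1 in CD4 alone. Klf1 was low in every library beside the globins, at 1.39 against 619 FPKM in M2.

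Epor, the erythropoietin receptor, had another order than the other 7 genes. It lies on the reverse strand of chromosome 9 from 21763343 to 21768020, and was at 0.216 FPKM in M1, 1.48 in M2 and 2.15 in CD4. The library labelled CD4, which held macrophage genes, was highest, 1.45 times M2 (counting interval 1.20 to 1.77) and 9.96 times M1 (6.56 to 15.8). M2 exceeded M1 by 6.85 times (4.44 to 11.0). The table held 6 rows for its only transcript, of which 1 had values in all 3 columns. With all rows added Epor was at 0.545 FPKM in M1, 1.72 in M2 and 3.00 in CD4, the same order, and the ratio of M2 to M1 fell to 3.15.

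**Figure D2:**
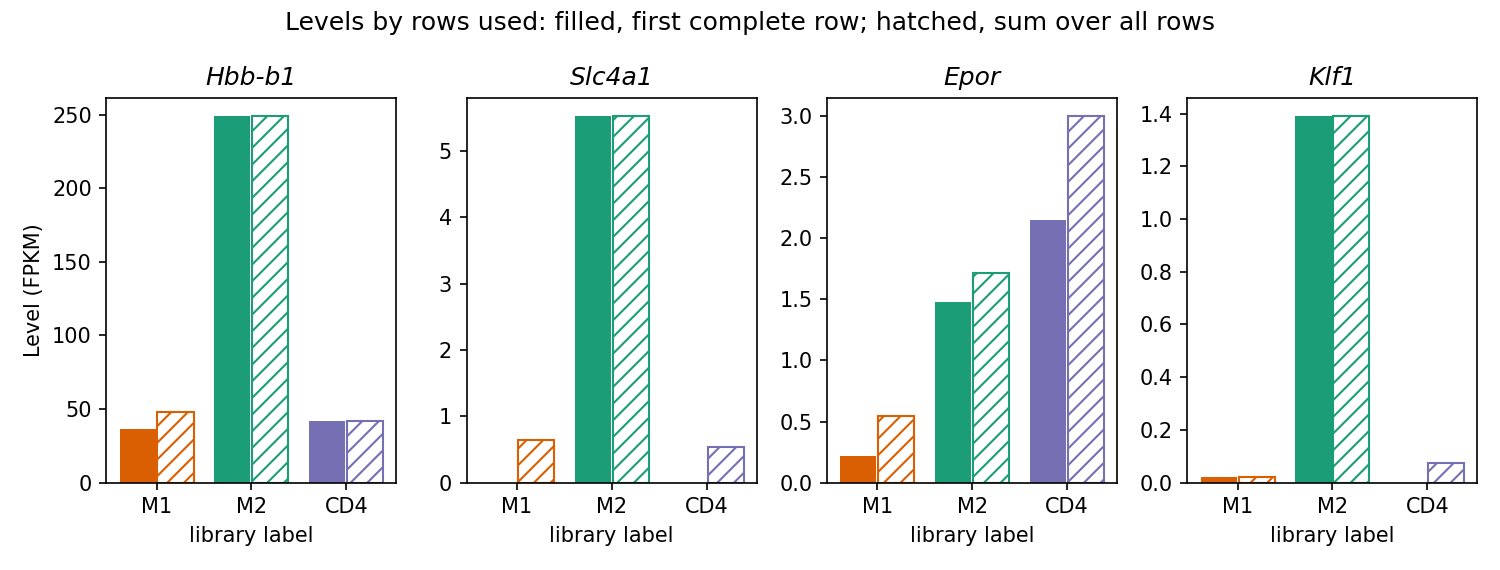
Levels in FPKM of Hbb-b1, Slc4a1, Epor and Klf1 by library label, each on its own axis from 0, from the first row with 3 values (filled bars) and from the sum over all rows (hatched bars). Slc4a1 goes from 0 to 0.636 FPKM in M1 and to 0.534 in CD4, and Hbb-b1 from 36.4 to 48.2 in M1, and for Epor CD4 stays highest, at 3.00 FPKM with all rows.

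A gene was counted as different between 2 libraries where the log2 ratio of FPKM + 1 was at least 1 in size. For M2 against CD4, 7 of the 8 genes were higher and 0 lower, where over all genes tested 16.9% were higher and 15.0% lower. For M2 against M1, 8 were higher and 0 lower, against 16.6% and 14.2% of all genes, a split of 53.9% higher among the different genes that became 64.5% when libraries were rescaled to a total of 1000000. For M1 against CD4, 0 were higher and 1, Epor, was lower, against 6.58% and 6.40%. M2 enters 2 of these comparisons, and they share its values. All 8 genes passed the minimum of 1 FPKM in at least 1 library, and Alas2, Slc4a1 and Klf1 passed it through M2 alone, so that a difference was built into their counts. Epor was close to the threshold for M2 against M1, at a log2 ratio of 1.03.

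**Figure D3:**
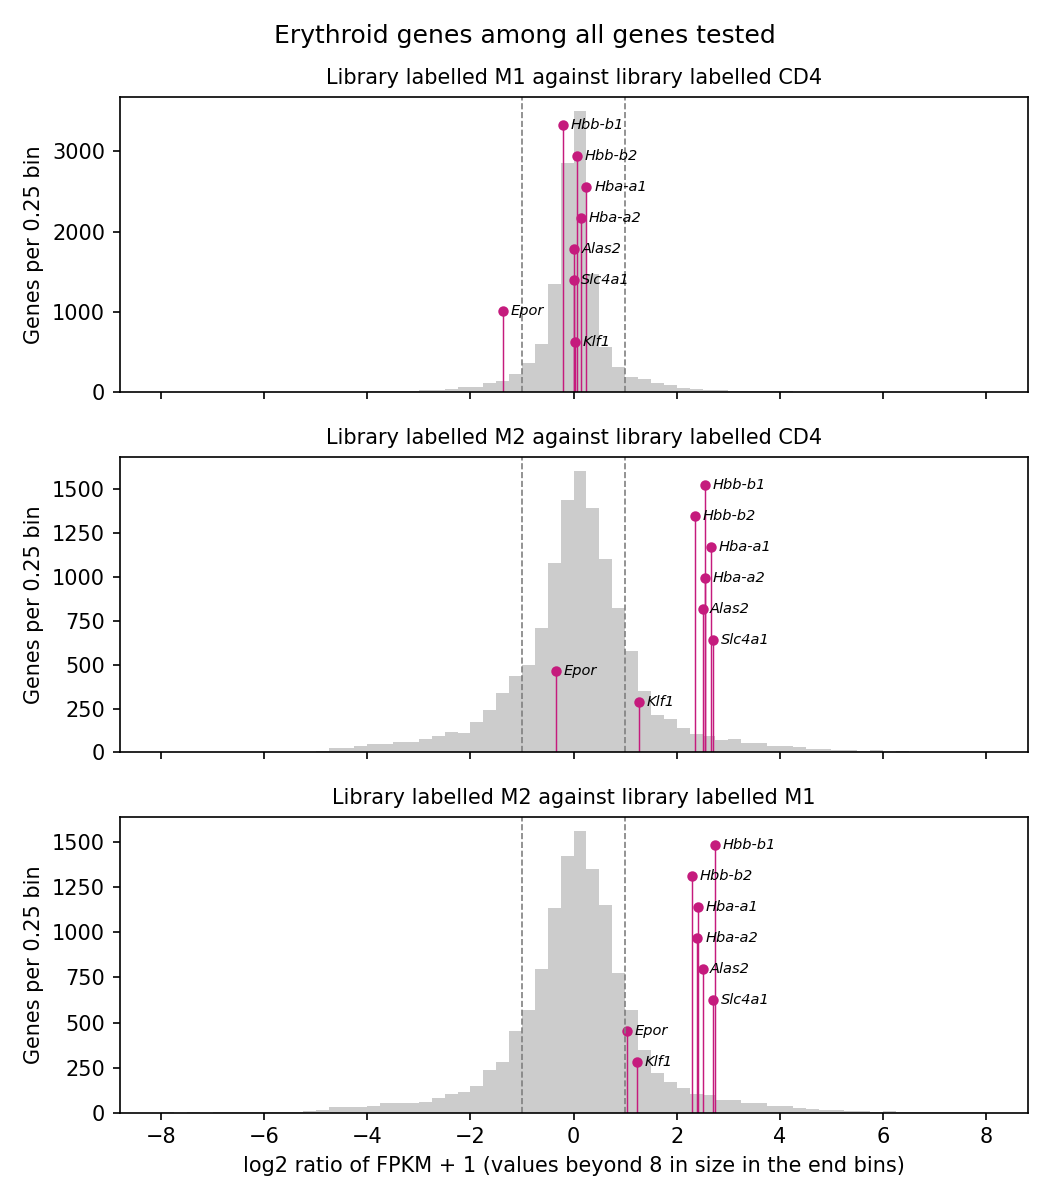
Number of genes per bin of the log2 ratio of FPKM + 1 for each pair of libraries over 12675 genes (grey bars), with the 8 erythroid genes at their ratios (pink points, height without meaning) and dashed lines at 1 and -1. For M1 against CD4, 7 of the 8 lie between the lines, and for M2 against CD4 the globins, Alas2 and Slc4a1 lie between 2.35 and 2.71.

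Other genes of red cells were described from lists. Of 18 genes of the red cell membrane and its skeleton, 17 had a level, and 15 of them were highest in M2, where 46.4% of the genes above 0 in any library were. The other 2, Icam4 and Tmod1, were listed at 0 in all 3 libraries. Slc4a1, Rhd, Kel and Ermap were above 0 in M2 alone, which held for 7.21% of genes. Of the 9 list genes at 1 FPKM or more in a library, 6 were higher in M2 than in CD4 and 6 higher than in M1, with 0 lower in either, where 16.9% and 16.6% of all genes were higher. Of these 9, 7 reached 1 FPKM through M2 alone, among them 5 of the 6 higher in each comparison, so that a difference was built into those counts. The median log2 ratio of these 9 was 1.69 for M2 against CD4, beside 0.10 for all genes.

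Rhag, a protein of the Rh complex, was at 1.39 FPKM in M2, 0 in M1 and 0.00807 in CD4. Rhd was at 2.42 FPKM, Kel, the Kell antigen, at 0.901 and Ermap at 0.697 in M2. In M1 and CD4 the last 3 were listed at 0, but with all rows added Rhd was at 0.466 FPKM in M1, 3.77 in M2 and 0.267 in CD4, and Ermap at 0.238, 2.02 and 0.529. Kel stayed at 0 in M1 and CD4 with all rows. Per 1000 FPKM of globin, Slc4a1 with all rows was at 8.92 in M2, 5.46 in M1 and 5.17 in CD4. Alas2 on the same measure was at 7.53 in M2 and at 0 in M1 and CD4. Some other genes of the membrane list, though not all, were above 0 in all 3 libraries. Epb4.1, which encodes protein 4.1 of the membrane skeleton, was at 14.0 FPKM in M1, 29.2 in M2 and 16.7 in CD4, and Gypc at 4.30, 8.70 and 2.01. Aqp1, a water channel also of endothelium and kidney, was at 0.279, 5.55 and 0.703 FPKM. Rhag was picked out after its values were seen.

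**Figure D4:**
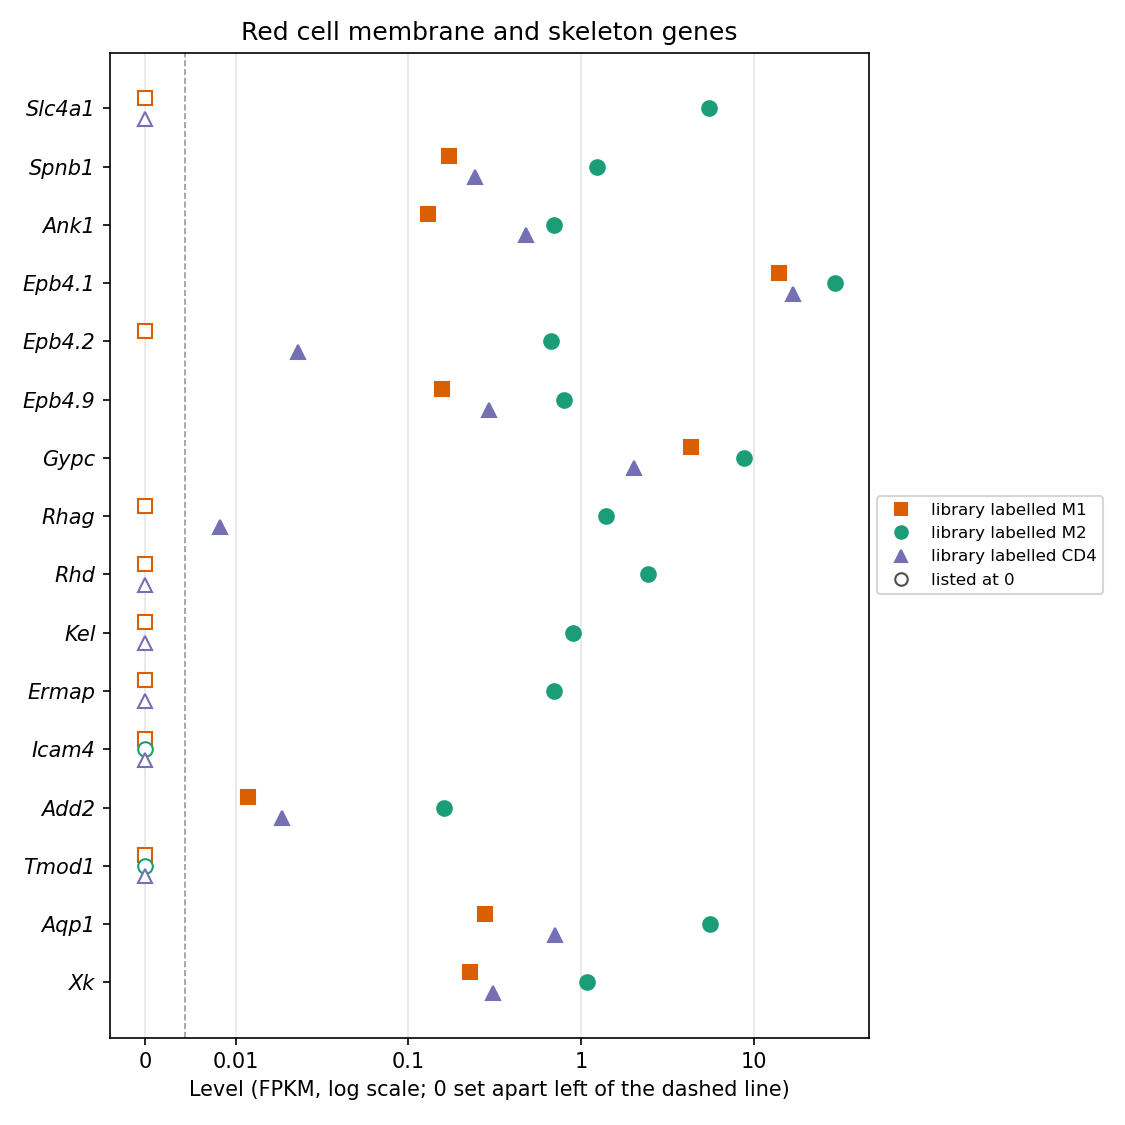
Levels in FPKM, on a log axis, of 16 of the red cell membrane and skeleton genes with a level, 1 point per library and open symbols for genes listed at 0. The library labelled M2 (circles) is highest for 14 of them, and Slc4a1, Rhd, Kel and Ermap are listed at 0 in both other libraries.

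The genes of heme synthesis beyond Alas2 were above 0 in all 3 libraries and moved in both directions. Alas1, the enzyme of the same step in other tissues, was at 24.7 FPKM in M1, 10.8 in M2 and 24.3 in CD4, lowest where Alas2 was highest. Alad was at 18.7, 30.5 and 19.7 FPKM, Urod at 14.7, 20.2 and 19.3 and Ppox at 8.22, 16.8 and 13.4. Of the 9 genes of the pathway, 1 was higher and 1 lower in M2 than in CD4, these being Alas2, which reached 1 FPKM through M2 alone, and Alas1. Against M1, 2 were higher and 1 lower, Uros, an enzyme of the pathway, being the second higher gene at 4.24 FPKM in M1, 9.59 in M2 and 4.80 in CD4. Over all genes 16.9% were higher and 15.0% lower in M2 than in CD4, and 16.6% and 14.2% than in M1. The median log2 ratio was 0.24 against CD4 and 0.43 against M1. Of 9 genes of iron and heme transport, 6 had a level, and 0 were higher and 1 lower in M2 than in each of the other libraries, the one being Steap3, an iron reductase, at 22.0 FPKM in M1, 9.25 in M2 and 22.7 in CD4. Tfrc, the transferrin receptor, was at 11.9, 23.2 and 17.8 FPKM.

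Of 12 transcription factors of the erythroid program, 11 had a level, and of the 9 at 1 FPKM or more 5 were higher and 1 lower in M2 than in CD4. Against M1, 6 were higher and 2 lower. The shares over all genes were 16.9% higher and 15.0% lower against CD4, and 16.6% and 14.2% against M1. Klf1, Tal1 and Myb reached 1 FPKM through M2 alone and were among the higher genes in both comparisons. Tal1, a partner of Gata1, was at 0.745 FPKM in M1, 2.81 in M2 and 0 in CD4, but at 2.16, 2.81 and 6.08 with all rows, where CD4 was highest. Many of these factors are also used by other blood cells. Ldb1, a cofactor of Gata1 complexes, was at 13.8 FPKM in M1, 91.2 in M2 and 18.2 in CD4, and Myb, a factor of progenitors and lymphocytes, at 0.462, 6.81 and 0.368. Lmo2 had another order, at 19.2, 7.24 and 60.1 FPKM. Nfe2, the other gene lower in M2 than in M1, was at 5.66 FPKM in M1, 1.32 in M2 and 0.418 in CD4. Gfi1b was also highest in M1, at 1.14, 0.515 and 0.0995 FPKM. Gata1 was at 0.0608 FPKM in M1, listed at 0 in M2 and at 0.0216 in CD4. In M2 the value of Gata1 rested on the choice of row, and the sum over all rows was 2.99 FPKM there, with M1 and CD4 as before.

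Genes of signalling from the erythropoietin receptor moved in both directions. Of 13 at 1 FPKM or more, 3 were higher and 5 lower in M2 than in CD4, beside 16.9% and 15.0% of all genes, and the median log2 ratio was -0.57. Against M1, 2 were higher and 4 lower, beside 16.6% and 14.2%. Lyn, a kinase of the Src family, was at 118 FPKM in M1, 15.2 in M2 and 117 in CD4, and Ptpn6, a phosphatase that shuts off the receptor, at 130.1, 81.8 and 129. Epo, the ligand, which is made mainly in the kidney, was listed at 0 in all 3 libraries, and with all rows added it was at 0.322 FPKM in M1, 1.68 in M2 and 0.906 in CD4.

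Among 17 other genes of red cells and reticulocytes with a level, 11 were highest in M2, beside 46.4% of the genes above 0 in any library. Car1, the carbonic anhydrase of red cells, was at 2.24 FPKM in M2, Hemgn, a nuclear protein of blood progenitors, at 2.11 and Cldn13 at 1.57, and each was listed at 0 in M1 and CD4. Tspo2 and Trim58 were also above 0 in M2 alone, at 0.316 and 0.0256 FPKM. Thus 5 of the 17 genes were above 0 in M2 alone, beside 7.21% of the genes above 0 in any library. Each of these 5 stayed at 0 in M1 and CD4 with all rows. Cat, which encodes catalase, was at 48.2 FPKM in M1, 57.6 in M2 and 61.7 in CD4, and Prdx2 at 51.5, 43.0 and 49.0. Of the 13 genes of this list at 1 FPKM or more, 6 were higher and 2 lower in M2 than in CD4, beside 16.9% and 15.0% of all genes. Car1, Hemgn and Cldn13, 3 of the 6, reached 1 FPKM through M2 alone. Against M1, 5 were higher and 3 lower, beside 16.6% and 14.2%, with a median log2 ratio of 0.25. Those lower in M2 than in M1 were Alox15, a lipoxygenase, at 23.4 FPKM in M1, 0.610 in M2 and 2.25 in CD4, Mkrn1 at 44.0, 16.8 and 35.6, and Blvrb, a biliverdin reductase, at 2.93, 0 and 0. With all rows Blvrb was at 16.8, 9.56 and 55.6 FPKM.

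Markers of other cells moved in part with these genes. The summed level of the 11 T-cell genes was 14.2 FPKM in M1, 1802 in M2 and 18.4 in CD4, and was thus highest in the same library as the erythroid genes. That of the 12 macrophage genes was 8469, 664 and 13382 FPKM. The 13 platelet and megakaryocyte genes summed to 101, 24.2 and 177 FPKM. Of these, 2 were highest in M1, 4 in M2 and 1 in CD4, and the others were at 0 in all 3 libraries. Over all genes above 0 in any library, 46.4% were highest in M2. Itgb3, an integrin chain that other cells also use, was at 0.466 FPKM in M1, 13.6 in M2 and 0.255 in CD4. Itga2b, its partner on platelets, was at 0.0921, 0.121 and 0.0765, Gp1ba at 0.185, 0.484 and 0.187 and Gp5 at 0.0120, 0.0448 and 0.0225 FPKM. Ppbp and Tubb1 were lowest in M2. Ppbp was at 18.8 FPKM in M1, 0.430 in M2 and 2.72 in CD4, and Tubb1 at 0.0286, 0 and 0.0176. Most of the sum in M1 and CD4 was Pf4, which macrophages also make, at 81.1 FPKM in M1, 9.60 in M2 and 174 in CD4, while Gp9, Gp1bb, Gp6, Treml1 and Clec1b were listed at 0 in all 3. With all rows Treml1 was at 0.987 FPKM in M1, 0 in M2 and 2.54 in CD4, Itga2b at 0.287, 1.42 and 0.231, and Gp9 at 0.116 in M2. The part of these cell types in the erythroid levels was not tested. Genes with which macrophages clear red cells were mostly lower in M2, and of 13 at 1 FPKM or more, 1 was higher and 10 lower than in CD4, beside 16.9% and 15.0% of all genes, and 2 were higher and 8 lower than in M1, beside 16.6% and 14.2%. Fth1 and Ftl1, the ferritin chains, were at 609 and 575 FPKM in M2, 1506 and 1359 in M1 and 1719 and 1604 in CD4, and Hmox1, which breaks down heme, at 38.7, 239 and 201 FPKM.

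The genes nearest to the globins in their differences between libraries were sought over 12667 other genes, by the distance between log2(FPKM + 1) differences over the 3 libraries. The 5 nearest to the summed globins were Ighv3-8, Ighv14-3, Igkv4-70, G430095P16Rik and a further kappa chain V gene, at distances of 0.0173 to 0.0218, and 106 genes lay within 0.25. Each of the 5 was at 4.89 to 4.93 FPKM in M2 and listed at 0 in M1 and CD4. They resemble the globins in the size of the difference on this scale and not in level. The 5 nearest to Alas2 were Gm10902, Pnp2, Kctd12, Gm10903 and Gm16695, and 97 genes lay within 0.25. With 3 libraries such a likeness has 2 differences behind it and is a description only.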

How the data were processed

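Total RNA of sorted M1, M2 and CD4 cells was sequenced, 1 library each. The authors aligned reads to MM9 using TopHat with Bowtie, and assembled and quantified transcripts in Cufflinks, guided by Ensembl. The submitters' processing notes also name Cuffdiff. The authors deposited 1 table of transcript levels in FPKM, with no counts, so that depth was estimated from the lowest peak of FPKM times transcript length, taken as 1 fragment, using coding transcripts 2500 to 8000 bases long without a second isoform. Other choices of length gave 60500000 to 61600000 fragments for M1, 57100000 to 61200000 for M2 and 72300000 to 75100000 for CD4.

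Columns were assigned by their headings. Identifiers were matched to the GENCODE annotation of NCBIM37, and 97.6% of 92519 were found. The first row with values in all 3 columns was kept for each identifier, and rows were summed per gene. List genes without such a row were not analysed here, and some list genes are counted but not reported by name. Genes with at least 1 FPKM in a library were compared on log2(FPKM + 1), with no p-value. Counting intervals of fold differences of single genes were exact (Clopper-Pearson, 95%). Those of log2 ratios set the lower 95% Poisson limit of 1 library against the upper limit of the other, and the reverse. They are not 95% intervals of the ratio. Genes named were the 8 members, up to 4 of each list by highest level, and list genes listed at 0. Exceptions were Rhag, Uros, Tal1, Nfe2, Gfi1b, Alox15, Blvrb, Itga2b, Gp1ba, Gp5, Tubb1 and Hbq1a, which were named after their values were seen. The members and lists were chosen with earlier results of these data known. The alternatives were other rows, transcripts, pseudocounts, scalings and filters. Row choice, calls and depth estimates were tested on simulated levels. The software was scipy 1.17.1, matplotlib 3.10.9, pandas 2.3.3 and numpy 2.4.6 under Python 3.11.15.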

Additional observations from a re-analysis of the deposited data

Results flagged for a closer look

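Rows of the 8 genes that the reading of 1 row per identifier left out held levels above that of 3 fragments, and no control library was there to set them against. For Hbb-b1 such a row was at 11.8 FPKM in the library labelled M1. For Slc4a1 the rows were at 0.636 FPKM in M1 and 0.534 in CD4, libraries in which the gene was otherwise listed at 0, and for Klf1 at 0.0759 FPKM in CD4, where the same held. For Epor they were at 0.213 and 0.117 FPKM in M1, 0.242 in M2 and 0.416 and 0.437 in CD4. The level of 3 fragments was between 0.00904 FPKM, for Slc4a1 in CD4, and 0.0630, for Hbb-b1 in M1. Why an identifier has several rows was not tested.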

How the results depend on the processing

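No paired analysis was possible because there was 1 library of M1, of M2 and of CD4, and for the same reason no library could be left out. The number of the 8 genes different between libraries was the same in each alternative, except that with all rows of an identifier 7 in place of 8 were higher in M2 than in M1, Epor being lost. The summed globin log2 ratio of M1 against CD4 went from 0.02 to 0.17, and that of M2 against M1 from 2.56 to 2.40, with all rows, by construction, since a row of Hbb-b1 in M1 is added. With each library rescaled to a total of 1000000 it was 2.75 for M2 against CD4 and 2.74 for M2 against M1, and with median-ratio scaling 2.51 for M2 against CD4, where 2.57 and 2.56 were the values reported. No ratio of a single gene that passed the threshold changed sign. The ratio of Hbb-b1 in M1 against CD4, below it, went from -0.20 to 0.19 with all rows. Ratios of genes listed at 0 moved with the pseudocount, that of Alas2 in M2 against CD4 from 2.50 to 5.57 at 0.1 FPKM. Keeping protein-coding transcripts only, an alternative chosen after seeing the data, left all 24 ratios of single genes within their counting intervals. Rescaling to a total of 1000000 moved the median log2 ratio of all genes from 0.10 to 0.28 for M2 against CD4 and from 0.09 to 0.29 for M2 against M1. The genes higher in M2 then numbered 3437 in place of 2146 against CD4, and 3468 in place of 2102 against M1, where the share of higher among different genes went from 53.9% to 64.5%. Genes under about 3 fragments, such as Klf1 in M1, are limited by depth.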
